A study of Bos taurus with 6 samples.

Results

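The BMP signalling and ID genes described here were 10 genes of the 17663 in the table of gene expression, found by their gene names. They were the ligand genes BMP2 and BMP4, the antagonist gene GREM1, the receptor gene BMPR1A, the inhibitory SMAD genes SMAD6 and SMAD7, and the ID genes ID1, ID2, ID3 and ID4. The 10 were chosen from values measured in these same libraries, with the difference between the groups in view. Their values are therefore given as a description. The calls that the fit across all genes made among them are counted beside the calls among all genes, and no p is given for them.

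RNA was sequenced from primary cultures of bovine fetal fibroblasts (bEFs) of 2 genotypes. FT cells came from 3 fetuses carrying a fat-1 transgene, a gene for a fatty acid desaturase that makes n-3 from n-6 fatty acids, and WT cells came from 3 wild-type fetuses of the Luxi breed. All fetuses were at 50 to 60 days of gestation, and each of the 6 libraries (FT_1 to FT_3 and WT_1 to WT_3) came from a separate fetus. The breed of the FT fetuses and the promoter of the transgene are not given in the sources used here, so a difference of breed and a difference of genotype cannot be told apart.

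BMPs are secreted ligands of the TGF-beta superfamily. They bring together type I and type II receptor kinases, which phosphorylate SMAD1, SMAD5 and SMAD9, and these enter the nucleus with SMAD4. Among the best known direct targets are the ID genes, whose proteins bind E proteins and keep basic helix-loop-helix factors off DNA, and SMAD6 and SMAD7, which feed back on the pathway. In fetal mesenchyme the pathway is known for its part in patterning and in the formation of bone, cartilage and fat.

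Levels are given as FPKM, fragments scaled by gene length and by library total, as the authors deposited them. Fold changes are on the log2 scale, FT minus WT, and come from a fit of edgeR to the raw counts. Their standard errors (SE) are approximate. Each is the size of the log2 fold change divided by the square root of the F statistic of edgeR's quasi-likelihood test. Total counts were 63366834, 48167642 and 54204446 in FT_1, FT_2 and FT_3 and 69777641, 51310741 and 54271927 in WT_1, WT_2 and WT_3. The cultures were measured in bulk, so fewer cells of a type and less RNA per cell cannot be told apart.

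FT_1 stood apart from the other FT libraries. The relative spread between 2 libraries, as edgeR's biological coefficient of variation, was 56.9% for FT_1 with FT_2 and 57.6% for FT_1 with FT_3. It was 8.23% for FT_2 with FT_3 and between 9.99% and 13.4% for the pairs of WT libraries. Of 13482 genes tested, 2184 (16.2%) differed over 2-fold between FT_1 and the mean of FT_2 and FT_3, on the log2 scale of scaled counts. So did 3 of the 10 BMP and ID genes, BMP2, SMAD7 and ID3, all with the higher value in FT_1. In deposited FPKM, 5 of the 10 did, since FT_1 was 2.05 times the mean of FT_2 and FT_3 for ID1 and 2.03 times for ID4. Fold changes and counts of calls are therefore given with FT_1 and without it.

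Of the 10 genes, 1 was called higher and 4 were called lower in FT by edgeR, with an adjusted p below 0.05 and a change of more than 1 on the log2 scale. Of the 13482 genes tested, 1131 (8.39%) were called higher, 1019 (7.56%) were called lower and 2150 (15.9%) were called in all. With no scaling beyond the total count, 879 genes were called higher and 1359 lower. With limma on log2(FPKM + 1) these were 423 and 993, and with limma on log2(FPKM + 0.1) they were 671 and 1326. In FPKM, 2 of the 10 genes had all FT libraries above all WT libraries and 5 had all FT libraries below, where 21.8% and 36.9% of the genes tested did. Without FT_1, 2 of the 10 were called higher and 5 lower, where 1482 of 13765 genes tested were called higher and 1614 lower, 22.5% in all. Since the 10 genes were chosen with this contrast known, nothing is read from these counts.

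**Figure D1:**
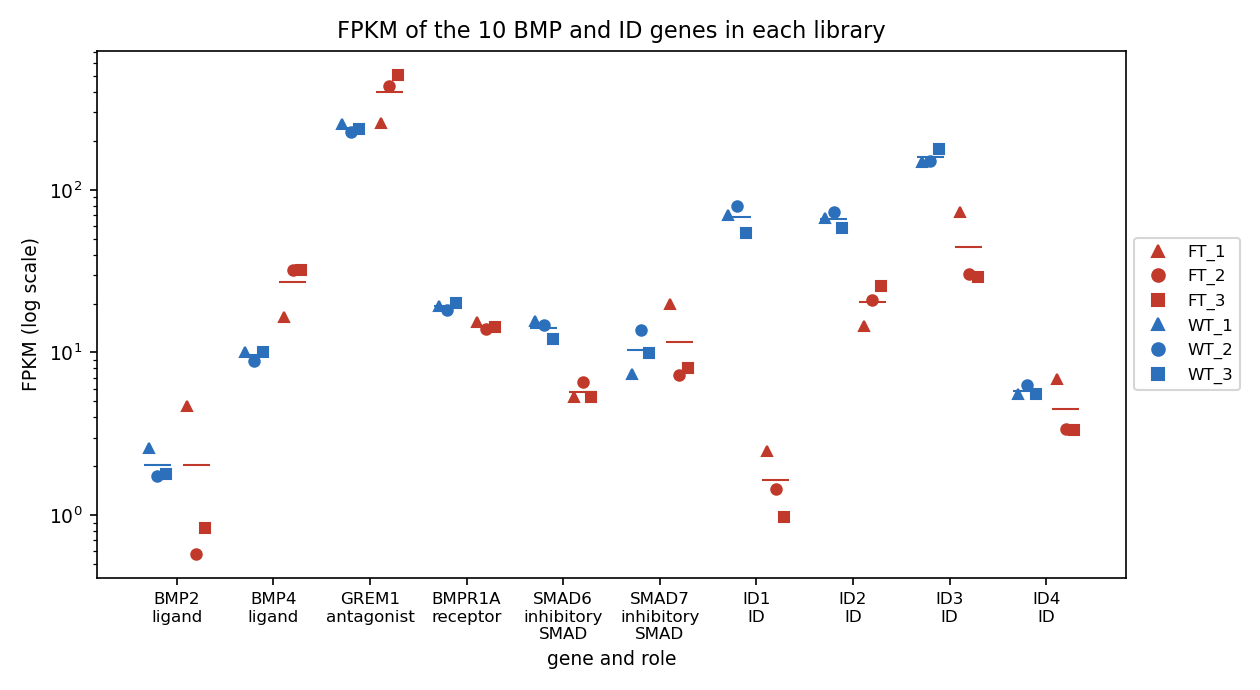
FPKM (log axis) of the 10 BMP and ID genes in each library, with WT in blue and FT in red. The symbols mark the libraries and the short lines are the group means. ID1 had the widest gap between the groups, with FT between 0.98 and 2.49 and WT between 54.65 and 79.4, and FT_1 lay apart from FT_2 and FT_3 in several genes.

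The 2 ligand genes had different patterns. BMP4 (ENSBTAG00000003835, chromosome 10, 66518527 to 66525667) had an FPKM of 16.6, 32.0 and 32.2 in FT_1, FT_2 and FT_3 and of 10.05, 8.88 and 10.01 in WT_1, WT_2 and WT_3. All FT libraries were above all WT libraries, and FT_1 lay between the other FT libraries and WT. The means were 26.95 ± 8.96 (SD, n = 3) in FT and 9.65 ± 0.664 in WT. By edgeR on the raw counts, the log2 fold change was 1.64 (SE 0.28). Without FT_1 the log2 fold change was 1.90 (SE 0.09).

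BMP2 (ENSBTAG00000005111, chromosome 13, 49151441 to 49185579), which encodes the closest relative of the BMP4 ligand, had an FPKM of 4.69, 0.58 and 0.83 in FT_1, FT_2 and FT_3 and of 2.59, 1.73 and 1.80 in WT_1, WT_2 and WT_3. The groups overlapped, because FT_1 was the highest of the 6 libraries while FT_2 and FT_3 were the lowest. The log2 fold change was 0.14 (SE 0.79) with all libraries and -1.35 (SE 0.23) without FT_1. With all libraries, limma gave -0.25 on log2(FPKM + 1) and -0.54 on log2(FPKM + 0.1). A replicate block gave -0.46, and the other settings gave values above 0. The ratio of BMP4 to BMP2 in FPKM was 3.54 in FT_1, just below the 3.88, 5.13 and 5.56 of WT_1, WT_2 and WT_3, and it was 55.2 in FT_2 and 38.8 in FT_3.

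GREM1 (ENSBTAG00000050495, chromosome 10, 29964364 to 29978686) encodes gremlin 1, a secreted antagonist that binds BMP2 and BMP4 and keeps them from their receptors. It had the highest level of the 10 genes in each library, with an FPKM of 258.5, 435.3 and 510.8 in FT_1, FT_2 and FT_3 and of 254.85, 228.1 and 237.5 in WT_1, WT_2 and WT_3. FT_2 and FT_3 were far above WT, while FT_1 was just above the highest WT library. By edgeR the log2 difference was 0.91 (SE 0.26), and 1.15 (SE 0.08) without FT_1. GREM1 exceeded BMP4 in FPKM by 15.6, 13.6 and 15.9 times in FT_1, FT_2 and FT_3 and by 25.4, 25.7 and 23.7 times in WT_1, WT_2 and WT_3, so the ratio was lower in each FT library than in each WT library.

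BMPR1A (ENSBTAG00000000231, chromosome 28, 41486119 to 41544234) encodes a type I receptor for BMP2 and BMP4. Its FPKM was 15.4, 14.0 and 14.4 in FT_1, FT_2 and FT_3 and 19.35, 18.4 and 20.1 in WT_1, WT_2 and WT_3. The groups did not overlap, but the difference was small, and FT_1 was like the other FT libraries. By edgeR the log2 fold change was -0.24 (SE 0.07) with FT_1 and -0.27 (SE 0.07) without it. With all libraries it was -0.39 with no scaling and -0.36 with the length trend removed. Limma gave -0.38 on log2(FPKM + 1) and -0.40 on log2(FPKM + 0.1). The other settings left it near -0.24.

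SMAD6 (ENSBTAG00000000625, chromosome 10, 13478777 to 13621037) encodes an inhibitory SMAD that acts mainly on BMP signals. Its FPKM was 5.31, 6.56 and 5.34 in FT_1, FT_2 and FT_3 and 15.6, 14.8 and 12.0 in WT_1, WT_2 and WT_3. All FT libraries were below all WT libraries, and FT_1 did not stand apart. The means were 5.74 ± 0.713 (SD, n = 3) in FT and 14.1 ± 1.86 in WT, and the log2 fold change was -1.14 (SE 0.14), or -1.08 (SE 0.13) without FT_1.

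SMAD7 (ENSBTAG00000012441, chromosome 24, 48598830 to 48627410) encodes the other inhibitory SMAD, which acts on both BMP and TGF-beta receptors. Its FPKM was 19.8, 7.25 and 7.98 in FT_1, FT_2 and FT_3 and 7.39, 13.8 and 9.89 in WT_1, WT_2 and WT_3. The groups overlapped, and FT_1 was again the highest library. SMAD7 had a log2 fold change of 0.33 (SE 0.44) with FT_1 and -0.27 (SE 0.21) without it. SMAD7 exceeded SMAD6 in FPKM in all FT libraries, with ratios of 3.73, 1.105 and 1.49, and was below it in all WT libraries, with ratios of 0.474, 0.928 and 0.821.

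ID1 (ENSBTAG00000016169, chromosome 13, 61179938 to 61182003), the first of the 4 genes for inhibitors of DNA binding, had the largest difference of the 10 genes. Its FPKM was 2.49, 1.45 and 0.98 in FT_1, FT_2 and FT_3 and 70.0, 79.4 and 54.65 in WT_1, WT_2 and WT_3. Its raw counts were 307, 136 and 104 in the FT libraries and 9433, 7877 and 5724 in the WT libraries. Each FT library was far below each WT library, FT_1 included. The mean FPKM was 1.64 ± 0.773 (SD, n = 3) in FT and 68.0 ± 12.5 in WT, which is 41.5 times as high. By edgeR on the raw counts, the log2 difference was -5.21 (SE 0.39) with FT_1 and -5.64 (SE 0.21) without it.

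ID2 (ENSBTAG00000021187, chromosome 11, 88604880 to 88607401) had an FPKM of 14.6, 21.0 and 25.7 in FT_1, FT_2 and FT_3 and of 67.0, 73.5 and 58.1 in WT_1, WT_2 and WT_3. The groups did not overlap, and here FT_1 was the lowest library. ID2 had a log2 fold change of -1.53 (SE 0.23), or -1.33 (SE 0.12) without FT_1.

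ID3 (ENSBTAG00000030425, chromosome 2, 129296772 to 129298371) had an FPKM of 73.3, 30.4 and 29.0 in FT_1, FT_2 and FT_3 and of 147.8, 151.2 and 177.85 in WT_1, WT_2 and WT_3. All FT libraries were below all WT libraries, with FT_1 between the other FT libraries and WT. For ID3 the log2 fold change was -1.69 (SE 0.38), and -2.25 (SE 0.10) without FT_1. ID3 was no longer among the called genes when WT_1, WT_2 or WT_3 was left out, with log2 fold changes of -1.75, -1.73 and -1.61. ID4 (ENSBTAG00000052562, chromosome 23, 38099867 to 38101537) had an FPKM of 6.83, 3.40 and 3.34 in FT_1, FT_2 and FT_3 and of 5.54, 6.29 and 5.55 in WT_1, WT_2 and WT_3. The groups overlapped, with FT_1 above all WT libraries and FT_2 and FT_3 below them. The log2 fold change of ID4 was -0.20 (SE 0.32), and -0.61 (SE 0.19) without FT_1.

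**Figure D2:**
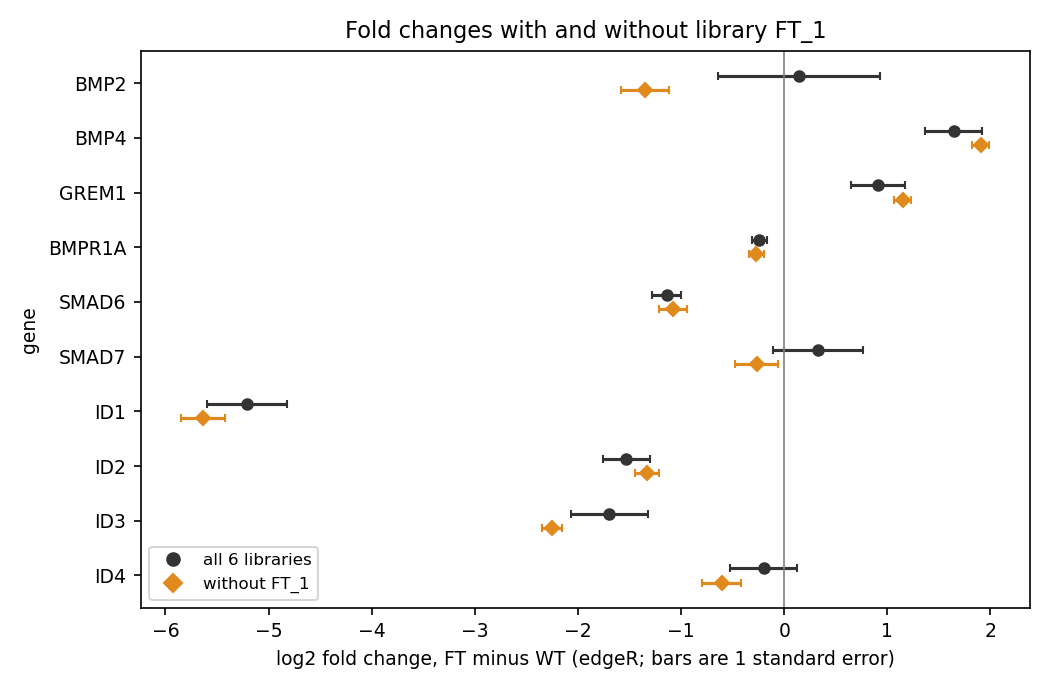
Log2 fold changes of the 10 genes, FT minus WT, from edgeR with all 6 libraries (black circles) and without FT_1 (orange diamonds). Bars are 1 standard error, approximated from the F statistic of the test. BMP2 moved from 0.14 to -1.35 and SMAD7 from 0.33 to -0.27 without FT_1, while the ID1, ID2, ID3, SMAD6 and BMP4 values stayed on the same side of 0.

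The summed FPKM of the 4 ID genes was 97.25, 56.25 and 59.1 in FT_1, FT_2 and FT_3 and 290.4, 310.4 and 296.2 in WT_1, WT_2 and WT_3. The make-up of the sum differed as well as its size. ID1 made up 24.1%, 25.6% and 18.45% of the sum in WT_1, WT_2 and WT_3 and 2.56%, 2.58% and 1.66% in FT_1, FT_2 and FT_3. ID3 was the most abundant ID gene in each library, with 75.4% of the sum in FT_1 and between 48.7% and 60.05% in the other libraries. ID2 took 15.0%, 37.4% and 43.55% in FT_1, FT_2 and FT_3, compared with 23.1%, 23.7% and 19.6% in WT_1, WT_2 and WT_3.

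**Figure D3:**
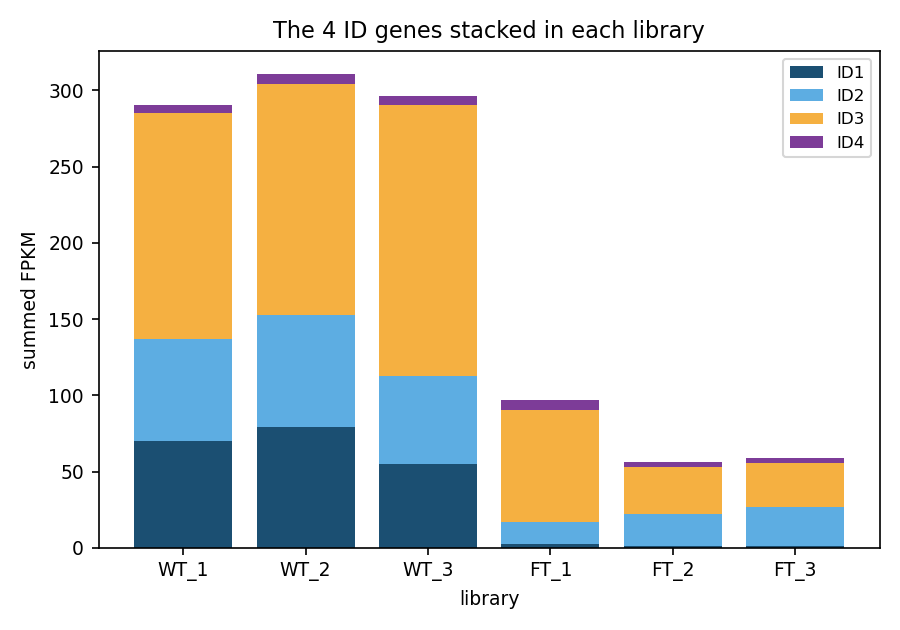
FPKM of ID1, ID2, ID3 and ID4 stacked in each library, so that the height of a bar is their summed FPKM. The WT bars stand between 290.4 and 310.4, the FT_1 bar at 97.25 and the other FT bars at 56.25 and 59.1, and the ID1 segment is hardly visible in the FT bars.

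The order of the levels differed between the genotypes. In WT the mean FPKM ran from GREM1 (240.2 ± 13.6, SD, n = 3) and ID3 (158.95 ± 16.5) through ID1 (68.0 ± 12.5), ID2 (66.2 ± 7.74), BMPR1A (19.3 ± 0.882), SMAD6 (14.1 ± 1.86), SMAD7 (10.3 ± 3.21), BMP4 (9.65 ± 0.664) and ID4 (5.79 ± 0.43) to BMP2 (2.04 ± 0.478). ID1 and ID2 differed by less than the larger of their SDs, and so did SMAD7 and BMP4, while the other neighbours in that order differed by more. In FT it ran from GREM1 (401.5 ± 129.5) and ID3 (44.2 ± 25.2) through BMP4 (26.95 ± 8.96), ID2 (20.5 ± 5.59), BMPR1A (14.6 ± 0.714), SMAD7 (11.7 ± 7.06), SMAD6 (5.74 ± 0.713), ID4 (4.52 ± 2.0) and BMP2 (2.03 ± 2.3) to ID1 (1.64 ± 0.773). With all libraries, ID1 was next after ID3 in WT and last in FT, and BMP4 was below SMAD7 in WT and next after ID3 in FT. Without FT_1, the FT mean of BMP4 (32.1) was above that of ID3 (29.7), and the mean of BMP2 (0.705) was below that of ID1 (1.22), while the other genes kept their places. In FT, where FT_1 differed from FT_2 and FT_3, only GREM1 and ID3, ID2 and BMPR1A, and ID4 and BMP2 differed by more than the larger SD among the neighbours in that order.

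The genes whose values over the 6 libraries were nearest to those of ID1, by the root mean square difference of log2(FPKM + 1) after each gene's WT mean was subtracted, were VWA5A (0.397), CD34 (0.796), RF00002 (0.907, a row named after an RNA family), DIRAS3 (1.05) and DUT (1.13). They were taken from 11214 genes with a symbol and a mean FPKM of at least 0.5. Since they were picked by their values in these libraries, their likeness to ID1 follows from the choice. VWA5A had an FPKM of 1.84, 2.28 and 2.09 in FT_1, FT_2 and FT_3 and of 75.3, 59.9 and 60.6 in WT_1, WT_2 and WT_3, so it too was low in FT_1 as well as in the other FT libraries. CD34, a surface glycoprotein gene, was at 0.03, 0.70 and 0.28 in the FT libraries and at 18.75, 16.0 and 16.5 in the WT libraries.

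The genes nearest to BMP4 lay much closer to it. They were SERPINF1 (0.0524), ANPEP (0.0732), NAGLU (0.0755), ECE1 (0.0826) and PCOLCE (0.0873). SERPINF1, which encodes the secreted protein PEDF, had an FPKM of 532.2, 1052.9 and 1005.4 in FT_1, FT_2 and FT_3 and of 324.0, 286.1 and 345.8 in WT_1, WT_2 and WT_3. FT_1 lay between the other FT libraries and WT in SERPINF1, as it did in BMP4, which again follows from the choice.

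The rest of the pathway was described by a list of 62 further genes of BMP signalling. Of these, 50 had a row by symbol, and 42 passed the filter on low counts and were tested. By edgeR, 4 of the 42 rose in FT, 1 fell and 37 did not pass. Of all 13482 genes tested, 8.39% were called higher and 7.56% lower, 15.9% in all. The median log2 fold change was 0.295 for the list against 0.03 for all genes tested. The genes that rose were RGMA, FSTL3, MSX1 and RUNX2, and the gene that fell was ATOH8. With limma, on log2(FPKM + 1) and on log2(FPKM + 0.1) alike, 1 gene was called higher, RGMA, and 4 lower, which were TGFBR3, SMAD9, DLX2 and ATOH8. The median log2 fold change of all genes in these fits was -0.124 and -0.153, and FSTL3 (0.96 and 0.99), MSX1 (0.88 and 0.93) and RUNX2 (0.88 and 0.98) lay just under the fold threshold. Without FT_1, edgeR tested 45 genes of the list, of which 7 rose and 7 fell, where 22.5% of all genes tested were called. Only RGMA and ATOH8 were called both with FT_1 and without it.

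ATOH8, a basic helix-loop-helix factor gene known as a target of BMP receptor signalling in endothelium and liver, had an FPKM of 3.52, 5.74 and 4.93 in FT_1, FT_2 and FT_3 and of 16.1, 18.5 and 16.5 in WT_1, WT_2 and WT_3. Each FT library was below each WT library, as for ID1. ATOH8 fell by 1.69 in log2 terms (SE 0.20, adjusted p = 0.00213, edgeR) with FT_1, and by 1.5 (adjusted p = 1.16e-06) without it. RGMA, a co-receptor gene, had an FPKM of 2.68, 1.72 and 1.47 in FT_1, FT_2 and FT_3 and of 0.37, 0.32 and 0.48 in WT_1, WT_2 and WT_3. It was low in all libraries and higher in each FT library than in each WT library. Its log2 fold change was 2.47 (SE 0.31, adjusted p = 0.00254, edgeR), and 2.19 (adjusted p = 2.78e-05) without FT_1.

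The other 3 called genes rested in part on FT_1, which had the highest value of each. FSTL3, which encodes a follistatin-like protein that binds activins and some BMPs, had an FPKM of 48.9, 25.5 and 26.25 in FT_1, FT_2 and FT_3 and of 15.75, 15.7 and 16.6 in WT_1, WT_2 and WT_3. Its log2 fold change was 1.22 (SE 0.26, adjusted p = 0.0136, edgeR), and 0.86 without FT_1. MSX1, a homeobox gene and BMP target, had 38.7, 19.9 and 19.2 in the FT libraries and 12.8, 13.0 and 12.8 in the WT libraries. Its log2 fold change was 1.17 (SE 0.28, adjusted p = 0.020, edgeR), and 0.77 without FT_1. RUNX2, the gene for a transcription factor of bone formation, had 14.6, 8.66 and 8.77 in the FT libraries and 5.61, 5.0 and 5.01 in the WT libraries, with a log2 fold change of 1.19 (SE 0.22, adjusted p = 0.00796, edgeR) and 0.91 without FT_1. For these 3 genes every FT library was above every WT library, but without FT_1 their fold changes were under the threshold. FSTL3 and MSX1 also lost their calls when any 1 of the WT libraries was left out, although their fold changes hardly moved. They were 1.20, 1.20 and 1.24 for FSTL3 and 1.15, 1.17 and 1.16 for MSX1 without WT_1, WT_2 and WT_3.

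The most abundant gene of each further role was described too. The type I receptor gene ACVR1 had an FPKM of 27.3, 23.03 and 23.9 in FT_1, FT_2 and FT_3 and of 22.75, 21.9 and 21.7 in WT_1, WT_2 and WT_3. Its edgeR log2 fold change was 0.32 (SE 0.08) with FT_1 and 0.26 without it. SMAD4, the shared partner of the signal SMADs, had 39.1, 34.5 and 34.6 in the FT libraries and 34.5, 32.6 and 30.65 in the WT libraries. The edgeR log2 fold change of SMAD4 was 0.31 (SE 0.08) with FT_1 and 0.26 without it. ACVR1 was above all WT libraries in each FT library. SMAD4 was so only just, with 34.53 in FT_2 and 34.5 in WT_1. Both fold changes were far below the threshold.

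ENG, a co-receptor gene, had an FPKM of 55.5, 110.95 and 114.5 in FT_1, FT_2 and FT_3 and of 144.3, 139.2 and 138.9 in WT_1, WT_2 and WT_3. FSTL1, which encodes a secreted BMP-binding protein, had the highest level of the list, with 443.3, 548.5 and 548.1 in the FT libraries and 520.0, 504.7 and 541.9 in the WT libraries. SMURF2, a ubiquitin ligase gene, had 60.1, 46.5 and 49.3 in the FT libraries and 46.1, 55.4 and 52.2 in the WT libraries. The groups overlapped in FSTL1 and SMURF2, and ENG was lower in each FT library than in each WT library, and lowest in FT_1. Their log2 fold changes were -0.42 (SE 0.28) for ENG, 0.14 (SE 0.13) for FSTL1 and 0.18 (SE 0.12) for SMURF2, and none of the 3 passed the test. Without FT_1 they were -0.15, 0.24 and 0.07.

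Of the 12 further ligand genes listed, 7 had a row, and these had low levels. BMP7 had the highest mean of the 7 further ligand genes with a row, with values of 1.49 for FT_1, 0.03 for FT_2 and 0 for each of the other libraries. Its counts were 222 in FT_1 and 4 in FT_2, so they lay nearly all in FT_1. It did not pass the filter on low counts and was not tested. Of these 7, BMP6 alone was tested with all libraries. The FPKM of BMP6 was 0.72, 0.10 and 0.20 in FT_1, FT_2 and FT_3 and 0, 0.05 and 0.12 in WT_1, WT_2 and WT_3, and BMP6 did not pass. Without FT_1, 4 of the 7 were tested, and BMP3 and GDF10 were called higher.

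MSX2, the target gene with the highest mean, had an FPKM of 9.82, 37.6 and 37.0 in FT_1, FT_2 and FT_3 and of 11.8, 11.5 and 13.8 in WT_1, WT_2 and WT_3. FT_1 was below WT while FT_2 and FT_3 were far above it. The log2 fold change was 1.35 (SE 0.50, adjusted p = 0.0783, edgeR), and 1.76 (adjusted p = 4.75e-07) without FT_1. MSX1 and MSX2 therefore differed in which FT libraries were high.

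Some genes, named after their values were seen, were split within FT the other way, with FT_1 above FT_2 and FT_3. FST, which encodes the antagonist follistatin, had an FPKM of 110.9 in FT_1, of 16.8 and 16.1 in FT_2 and FT_3 and of 37.6, 51.2 and 41.5 in WT_1, WT_2 and WT_3. Its log2 fold change was 0.28 (SE 0.77) with FT_1 and -1.23 without it. SMAD9, a signal SMAD gene that BMP signals also induce, had 2.47 in FT_1, 0.37 and 0.36 in FT_2 and FT_3 and 5.82, 5.16 and 4.45 in the WT libraries. It was below all WT libraries in each FT library, with a log2 fold change of -2.11 (SE 0.79, adjusted p = 0.0796, edgeR) and -3.60 without FT_1. The homeobox gene DLX5 had 8.11 in FT_1, 0 and 0.04 in FT_2 and FT_3 and 0.53, 0.41 and 0.41 in the WT libraries, so its log2 fold change of 2.73 (SE 2.04) came from FT_1 alone, and it was -3.92 without FT_1.

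**Figure D4:**
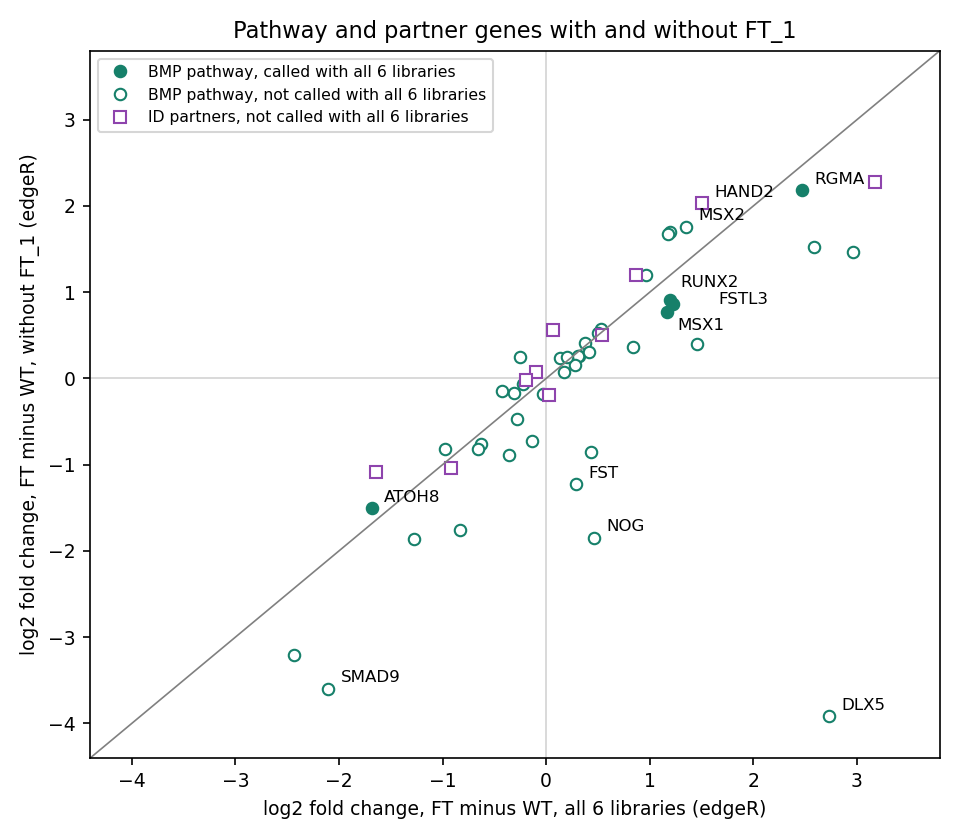
Log2 fold changes (FT minus WT, edgeR) of 42 further BMP pathway genes and 10 ID partner genes, with all 6 libraries on the x axis and without FT_1 on the y axis. Filled symbols were called with all 6 libraries, and the grey diagonal marks equal values. The sign differed between the fits for 7 of the 52 genes, DLX5, FST and NOG among them.

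ID proteins act by binding the E proteins and some tissue-specific basic helix-loop-helix factors, so a list of 15 of these partner genes was described too. All 10 with a row were tested, and 0 passed by edgeR, while 1 passed at an unadjusted p under 0.05 with the same fold threshold. DESeq2 called 1, limma called 1 on log2(FPKM + 1) and 2 on log2(FPKM + 0.1), and edgeR called 4 without FT_1. Over all genes tested, edgeR called 15.9% with all libraries and 22.5% without FT_1. At an unadjusted p it called 2586 of 13482 genes. DESeq2 called 2598 of 17263, and limma called 1416 and 1997 of 12247 in the same order of fits. The median log2 fold change of the 10 was 0.05 against 0.03 for all genes tested.

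The most abundant E protein gene, TCF12, had an FPKM of 25.2, 37.2 and 36.9 in FT_1, FT_2 and FT_3 and of 41.9, 38.0 and 39.4 in WT_1, WT_2 and WT_3. Its edgeR log2 fold change was -0.10 (SE 0.17), which turned to 0.07 without FT_1. TWIST2, a mesenchymal factor gene and the most abundant of the tissue factors, had 9.74, 79.2 and 74.7 in the FT libraries and 59.5, 57.4 and 58.8 in the WT libraries. FT_1 was the lowest library in both genes, and for TWIST2 the other FT libraries were above WT. The log2 fold change of TWIST2 was 0.07 (SE 0.70), and 0.56 without FT_1.

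The 4 partner genes called without FT_1 were TCF4 and HAND2, which were higher in FT, and MYF5 and HES1, which were lower. HES1, named after its values were seen and best known as a Notch target, had an FPKM of 41.4, 35.25 and 28.5 in FT_1, FT_2 and FT_3 and of 70.3, 83.0 and 67.7 in WT_1, WT_2 and WT_3. Each FT library was below each WT library. Its log2 fold change was -0.91 (SE 0.15, adjusted p = 0.00586, edgeR), just short of the fold threshold, and -1.04 without FT_1.

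Cell type markers were checked in the same libraries, because the ID and BMP levels are those of whole cultures. Their counts of calls stand beside those of all genes tested, of which 8.39% were called higher and 7.56% lower. Without FT_1, 1482 of 13765 were called higher and 1614 lower. All 12 fibroblast markers had a row and were tested, 1 was called higher and 0 lower, and their summed FPKM was 7173.0, 17380 and 17143.6 in FT_1, FT_2 and FT_3 and 18329.8, 17686 and 17863.4 in WT_1, WT_2 and WT_3. The most abundant, VIM, had 1243.9, 3850.2 and 4170.95 in the FT libraries and 7890.6, 8177.5 and 7311.8 in the WT libraries. FT_1 had the lowest fibroblast sum of the 6 libraries, but some markers, named after their values were seen, were highest in FT_1. PDGFRA, the marker called higher, had 217.7, 166.4 and 140.6 in the FT libraries and 93.5, 87.0 and 99.7 in the WT libraries. POSTN had 212.3 in FT_1 and between 34.0 and 39.6 elsewhere, and THY1 had 413.3 in FT_1 and between 330.0 and 368.5 elsewhere. Without FT_1, 3 of the 12 were called higher, DCN, LUM and PDGFRB. PDGFRA was then no longer called, with a log2 fold change of 0.89.

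The summed level of epithelial markers was highest in FT_1. Their summed FPKM reached 435.5 in FT_1, with 16.1 and 15.8 in FT_2 and FT_3 and 10.2, 7.92 and 14.2 in WT_1, WT_2 and WT_3. KRT5, the most abundant, had 171.5 in FT_1, 2.57 in FT_2, 1.63 in FT_3 and 0 in each WT library, and EPCAM had 0.57 in FT_1 and was listed at 0 elsewhere. FT_2 and FT_3 thus had low KRT5 levels, where WT was listed at 0. CDH1, named after its values were seen, had 36.3, 7.11 and 8.41 in FT_1, FT_2 and FT_3 and 10.03, 7.83 and 13.9 in WT_1, WT_2 and WT_3, which was nearly all of the WT sum, and FT_2 and FT_3 were not above WT in it.

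Of the 7 epithelial markers, all with a row, 6 were tested and 1 was called higher. It was CLDN4, named after its values were seen, with an FPKM of 3.65, 3.39 and 3.82 in FT_1, FT_2 and FT_3 and of 0.20, 0.09 and 0.33 in WT_1, WT_2 and WT_3, so FT_1 did not stand apart in it. Without FT_1, 5 were called higher, KRT5, KRT14, KRT8, KRT18 and CLDN4, where 1482 of all 13765 genes tested were. FT_1 was also the library in which BMP2, SMAD7, BMPR1A, ID1, ID3 and ID4 had their highest FT values, and the part of epithelial markers in those values and in the group differences was not tested.

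The adipocyte sum was lower in each FT library than in each WT library. Of 7 markers, 6 had a row and 5 were tested, with 1 called higher and 2 lower, and their summed FPKM was 3.54, 11.2 and 12.3 in FT_1, FT_2 and FT_3 and 145.7, 134.0 and 148.1 in WT_1, WT_2 and WT_3. Nearly all of the WT sum was FABP4, which had 0.08, 4.67 and 5.95 in the FT libraries and 140.3, 127.9 and 143.4 in the WT libraries. ADIPOQ, which marks mature adipocytes, was under 1 FPKM in each library. CIDEC, the other gene called lower, had 0.08, 0 and 0 in the FT libraries and 2.57, 3.20 and 2.27 in the WT libraries. CIDEC thus followed the sum, LEP and PLIN1 did not, and PPARG did so in FT_2 and FT_3 only. These 4 were named after their values were seen. LEP, the 1 called higher, had 0.03, 4.91 and 4.45 in FT_1, FT_2 and FT_3 and 0.09, 0.07 and 0.02 in WT_1, WT_2 and WT_3. PPARG had 2.02, 0.30 and 0.37 in the FT libraries and 1.24, 1.61 and 1.11 in the WT libraries, so the groups overlapped, and PLIN1 was between 1.23 and 1.49 in all 6. Without FT_1, 1 was called higher, LEP, and 3 lower, PPARG, CIDEC and FABP4. The adipocyte sum was thus low in the same libraries as ID1, and its part in the ID1 difference was not tested.

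Leukocyte markers summed to an FPKM of 5.17, 10.3 and 9.78 in FT_1, FT_2 and FT_3 and of 24.65, 23.1 and 23.2 in WT_1, WT_2 and WT_3. Of 7 markers, 5 had a row and 4 were tested, and 1 of these was called lower, or 2 without FT_1. The most abundant, LAPTM5, had 0.92, 6.20 and 6.26 in the FT libraries and 16.6, 16.35 and 15.4 in the WT libraries. Each FT library was below each WT library in LAPTM5 and in the sum. The marker called lower with all libraries was CD68, with 0.77, 1.01 and 1.35 in the FT libraries and 3.02, 2.71 and 2.57 in the WT libraries. CD14 had 3.29, 3.05 and 2.01 in the FT libraries and 4.72, 3.78 and 5.09 in the WT libraries, and CSF1R and AIF1 were under 1 FPKM in each library. CD68 and CD14 were named after their values were seen.

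Mural markers, those of pericytes and vascular smooth muscle, summed to 4.83, 12.9 and 12.5 in the FT libraries and 18.4, 16.0 and 16.9 in the WT libraries. Of the 6, all tested, 1 was called higher and 1 lower, or 1 and 3 without FT_1. The most abundant, CSPG4, had 2.46, 3.21 and 3.19 in the FT libraries and 11.3, 10.0 and 9.39 in the WT libraries. The gene called higher was MCAM, at 0.81, 0.31 and 0.45 in the FT libraries and 0.06, 0.02 and 0.04 in the WT libraries. RGS5 had 0.03 in FT_1 but 8.49 and 7.88 in FT_2 and FT_3, above the 5.15, 4.21 and 4.96 of the WT libraries, so single mural markers, both named after their values were seen, went either way. The leukocyte and mural sums were lower in FT, as ID1, ID2, ID3 and SMAD6 were, and their part in those genes was not tested.

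The remaining markers were low. Of 10 endothelial markers, 9 had a row, 4 were tested and did not pass, and 8 of the 9 were under 1 FPKM in each library, PECAM1, CDH5 and KDR among them. The endothelial sum was 7.11, 0.90 and 1.16 in FT_1, FT_2 and FT_3 and 2.97, 1.99 and 2.10 in WT_1, WT_2 and WT_3. FT_1 had the highest sum, most of it ERG, which had 6.03 there. Without FT_1, PECAM1 and ERG were called lower. Of 7 cartilage and bone markers, 6 had a row, 3 were tested and 1 was called lower, or 1 higher and 1 lower without FT_1. They summed to 3.09 in FT_1, most of it SOX9 at 2.19, and to between 0.80 and 1.69 in the other libraries, so FT_1 was again the highest.

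Of 7 glial and neural markers, 3 had a row, and the 2 that were tested did not pass, though TUBB3 was called lower without FT_1. They summed to between 1.32 and 3.81, most of it TUBB3. Of 7 myoblast markers, 4 had a row, 3 were tested and 1 was called higher. Their sum was 5.84, 4.72 and 3.85 in FT_1, FT_2 and FT_3 and 1.29, 1.5 and 2.06 in WT_1, WT_2 and WT_3. The called marker was DES, the desmin gene, with an FPKM of 5.74, 4.01 and 3.17 in the FT libraries and of 0.07, 0 and 0 in the WT libraries. MYF5, named after its values were seen, went the other way, with 0.03, 0.59 and 0.61 in the FT libraries and 1.06, 1.31 and 1.93 in the WT libraries, and was called lower without FT_1. MYF6 was under 1 FPKM in each library. DES was higher in FT with or without FT_1, and the part of these low markers in the BMP and ID levels was not tested.

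**Figure D5:**
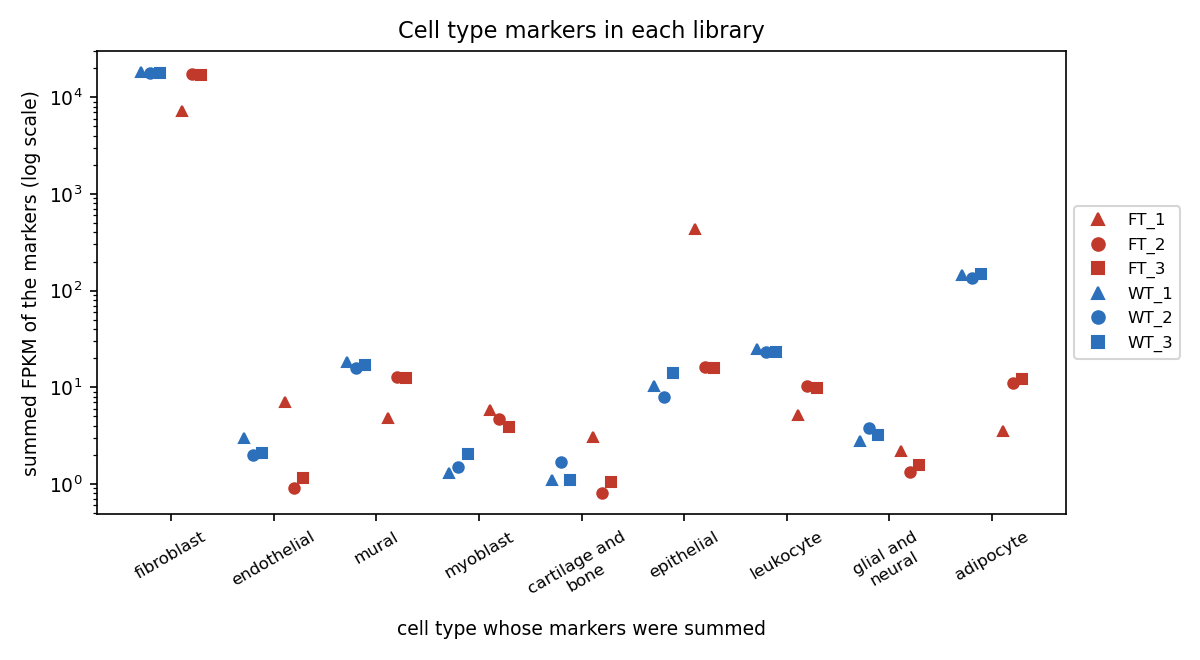
Summed FPKM (log axis) of the markers of 9 cell types in each library, with WT in blue, FT in red and a symbol for each library. Epithelial markers stand at 435.5 in FT_1 and at 16.1 or less elsewhere, and adipocyte markers stand between 134.0 and 148.1 in WT and between 3.54 and 12.3 in FT.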

How the data were processed

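RNA of bEFs from 6 fetuses was measured as poly(A) RNA by paired-end sequencing. The authors aligned the reads with HISAT, and they used Perl scripts to merge transcripts and StringTie with edgeR to obtain expression values. The submitters' processing notes list Bowtie 0.12.2, HISAT2 2.0, StringTie 1.3.0 and the mouse build mm8, although the cells are bovine. The bovine build of the coordinates is not given in the sources used here, nor is the use of strand. The authors deposited a raw count per gene and library, and FPKM values, scaled by gene length and library total, in the same table, which held genes of chromosomes 1 to 29. No per-sample column was left out.

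Counts were fitted with edgeR 4.0.16 in R 4.3.3 (TMM scaling, filterByExpr, quasi-likelihood test, Benjamini-Hochberg adjustment over all genes tested), with no covariate. A call needed an adjusted p below 0.05 and a log2 fold change above 1 in size. DESeq2 1.42.0 and limma 3.58.1 (mean FPKM not below 0.5) were alternatives, with other scalings, filters, thresholds, a length correction, a replicate block and each library left out. With 3 libraries per group, the smallest p of an exact permutation test would be 0.10. The fits were tested on simulated data in which all libraries had the same spread. No library that stood apart as FT_1 did was simulated, so the test does not cover that case.

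The members and lists were chosen with earlier results of these data known. By rule, the genes named were the 10 genes, every called pathway or partner gene, the most abundant gene of each role and cell type, called endothelial and myoblast markers, and the 5 genes nearest to the member with the largest fall and to the one with the largest rise. Some further genes were named outside this rule after their values were seen, among them FST, SMAD9, DLX5, HES1 and several markers. Listed genes with no row by symbol were not analysed here. No other row overlapped any of the 10 genes. Reads shared by close copies of a gene remain uncertain.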

Additional observations from a re-analysis of the deposited data

How the results depend on the processing

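Leaving out 1 library gave 3 to 14 called pathway genes, 0 to 4 partner genes and 1441 to 3096 genes in all, with the highest of each without FT_1. Pathway calls were 11 with DESeq2, 10 at an unadjusted p and 14 without a fold threshold, against 5. The 10 BMP and ID genes were chosen from these values, so their count of calls (5, or 4 to 7 with 1 library left out) says nothing of stability. Partner calls, against 0, were 1 with no scaling, with DESeq2, with limma on log2(FPKM + 1) and at an unadjusted p, and 2 with limma on log2(FPKM + 0.1) and without a fold threshold. The calls among all genes changed too. Of 13482 genes tested, edgeR called 2150, or 2586 at an unadjusted p, 5261 without a fold threshold and 2238 with no scaling. DESeq2 called 2598 of 17263 genes. Limma called 1416 of 12247 on log2(FPKM + 1) and 1997 on log2(FPKM + 0.1). Using no scaling shifted the median log2 fold change of all genes by -0.152. With 1 library left out, the log2 fold change ran from -1.23 to 0.69 for FST and from -3.92 to 3.31 for DLX5, both lowest without FT_1, and the cause was not tested. With all libraries, other processing gave -0.47 to 0.29 for FST and -1.43 to 2.83 for DLX5. FST was below 0 with limma and with the replicate block. DLX5 was below 0 with limma on log2(FPKM + 0.1) and with the replicate block. Log2 fold changes of the 10 genes moved by more than their spread between replicates in 5 of 90 comparisons under other processing and in 3 of 60 with a library left out. The 5 were ID1 with limma on log2(FPKM + 1), and BMPR1A with no scaling, both limma fits and the length trend removed. The 3 were ID3, ID4 and BMP2 without FT_1.

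Same-numbered FT and WT libraries came from different fetuses, and the correlations of their deviations from the group means were -0.0155, -0.0256 and 0.0365, so the numbers did not pair the libraries. With a replicate block in edgeR, 1650 genes were called in all, with 5 pathway genes, 0 partner genes and 5 of the 10 genes. FT_3 correlated best with its own number among the WT libraries, and FT_1 and FT_2 did not. DLX5 had 0 and 4 counts in FT_2 and FT_3, so its fold change without FT_1 rests on few counts.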
